A study of Homo sapiens with 6 samples.

Results

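Tropomyosins, calponins and transgelins are actin-binding proteins, and 10 of the 58825 genes in the table were taken by name as this group: the tropomyosins TPM1, TPM2, TPM3 and TPM4, caldesmon (CALD1), the calponins CNN1, CNN2 and CNN3, and the transgelins TAGLN and TAGLN2. Their mRNA was measured by poly(A) RNA-seq in PANC-1, a line of human pancreatic ductal carcinoma cells grown in Dulbecco's Modified Eagle Medium with fetal bovine serum. The MA PANC-1 group (3 samples) had received 40 μM maslinic acid, a pentacyclic triterpene found in olives, for 24 h, and the PANC-1 group (3 samples) had not. No allele, transgene or other agent was given for either group. The study's culture methods name DMSO as the control treatment, and the labels of these samples name no vehicle. The comparison asked which of these genes differed in mRNA level between treated and untreated cells of this single line.

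All 10 genes had reads in each of the 6 samples and passed the filter on low values, a mean FPKM of at least 0.1. FPKM is the number of fragments divided by the gene's length and by the sequencing depth. The estimated counts are not reads, and their totals exceed the valid reads listed in the study's supplement. The total was 56978375 for MA PANC-1 1, 63984133 for MA PANC-1 2 and 58181114 for MA PANC-1 3. In untreated cells the totals were 70275355 for PANC-1 1, 65607669 for PANC-1 2 and 59422939 for PANC-1 3. MA PANC-1 2 lay at the far end of the first principal component of tested genes, which held 26.4% of the variance. It was at -73.6, against -29.5 for MA PANC-1 1, 16.2 for MA PANC-1 3 and 18.0 to 44.9 for the PANC-1 samples. The treated samples were thus spread along this component, with MA PANC-1 3 next to the untreated ones. Values without MA PANC-1 2 are given beside the members and the pathway genes singled out at an unadjusted p under 0.05. This choice was made after seeing the data, and for the pathway genes no other sample was left out in the values given. The study's methods call the 3 samples of a group biological replicates. The p-values set the difference between the groups against the spread between these samples of a single cell line.

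The label of the cells was checked against markers. VIM (mesenchymal filament protein vimentin) had a mean of 617 FPKM, and KRT18 and KRT8, partner keratins of simple epithelia, had 310 and 198 FPKM. In contrast, the epithelial genes KRT19, EPCAM and CDH1 were at 0.0533, 0.0713 and 0.929 FPKM. Thus the cells carried simple keratins together with vimentin and almost no KRT19 or EPCAM mRNA. None of these markers had an unadjusted p under 0.05 in edgeR with all 6 samples, but without MA PANC-1 2 KRT7, KRT8, KRT18 and VIM did, each lower after MA.

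Tropomyosins are coiled-coil dimers that lie end to end along the actin filament and govern which motors and severing proteins reach it. Caldesmon and the calponins bind actin and restrain the myosin motor, and transgelins, which share the calponin-homology domain, bundle or gel actin. Many of these genes are textbook markers of smooth muscle and targets of serum response factor (SRF), which binds the CArG box with its MRTF coactivators when monomeric actin is scarce. TPM3, TPM4, CNN2, CNN3 and TAGLN2 are known as the members used widely outside muscle.

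The promoters were searched for the CArG box because it is the SRF site that many smooth muscle members share. RefSeq promoter windows of 300 bases (250 before and 50 after a start, GRCh38.p14) were matched for 9 of the 10 genes (all but TAGLN, which was not searched), with 19 windows in all, some of which overlap. The CArG box was found on either strand in 2 of these 19 windows, 1 of TPM4 and 1 of CNN2, and in 1.29% of all 35116 windows. In the 2 sequences shown, both from the plus strand and read 5′ to 3′ toward the start, capitals mark the CArG box. The first is chr19:16067305-16067434, whose box ends 163 bases before a TPM4 start, and the second is chr19:1026459-1026588, whose box ends 79 bases before the CNN2 start. In the GENCODE 29 annotation of GRCh38 the TPM4 box lies in an intron of a transcript that begins further upstream, and the CNN2 box lies outside any transcript, before the gene.
TPM4: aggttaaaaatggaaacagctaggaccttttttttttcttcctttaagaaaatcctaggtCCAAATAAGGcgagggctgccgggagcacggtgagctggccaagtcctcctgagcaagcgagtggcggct
CNN2: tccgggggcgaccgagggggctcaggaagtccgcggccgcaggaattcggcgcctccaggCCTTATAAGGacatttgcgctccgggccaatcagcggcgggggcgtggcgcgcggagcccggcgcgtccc

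The remaining motifs searched were more frequent than the CArG box over all windows. The TEAD site CATTCC (MCAT) was in 3 of the 19 windows, from CALD1 and CNN3, and in 14.0% of all windows. TATAAA was in 1 window, of CALD1, against 11.5% of all, and GGGCGG (GC box) was in 14 windows, covering all 9 genes, against 45.0% of all. Both strands were read for each motif, and a CArG box can overlap TATAAA or CATTCC, although neither of the 2 boxes found here did. A match describes these letters only.

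The levels in untreated PANC-1 cells spanned more than 2 orders of magnitude. TAGLN2 led with 220 ± 20.7 FPKM (SD, n = 3), at percentile 99.3 of tested genes, and TPM2, the beta tropomyosin, followed with 146 ± 7.05 FPKM. TPM4 had 68.7 ± 11.5 FPKM, CNN3 39.2 ± 2.25 FPKM and CNN2 34.8 ± 1.39 FPKM. Lower still were TPM3 at 17.5 ± 0.785 FPKM, TPM1 at 11.9 ± 1.37 FPKM and CALD1 at 3.45 ± 0.0581 FPKM. The smooth muscle forms came last, CNN1 at 1.56 ± 0.665 FPKM and TAGLN at 0.990 ± 0.00263 FPKM. Neighbours in this order lay further apart than their spread except CNN1 and TAGLN, whose means differed by less than the SD of CNN1. The low genes rested on few reads, 248 to 593 estimated counts per sample for CNN1 and 234 to 343 for TAGLN.

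This order depends on the gene length used. The length implied by a gene's own FPKM and counts was 1.19 times the union of its exons in the median gene, but 2.16 times for TPM3. For TPM3 it came to 18099.9 bases and for TPM1 to 16448 bases, against 3149 and 3957 bases for their longest coding transcripts. CPM (counts scaled to library size) per kilobase of the longest coding transcript put TAGLN2 at 407 ± 37.6 and TPM2 at 405 ± 19.0, which did not differ beyond their spread. On that scale TPM4 had 265 ± 44.9, and TPM3 came next with 101 ± 4.49, above CNN2 (69.0 ± 2.79), CNN3 (60.2 ± 3.35) and TPM1 (49.4 ± 5.61). CALD1 (9.48 ± 0.177), CNN1 (2.88 ± 1.22) and TAGLN (2.16 ± 0.0101) kept the last places.

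**Figure D1:**
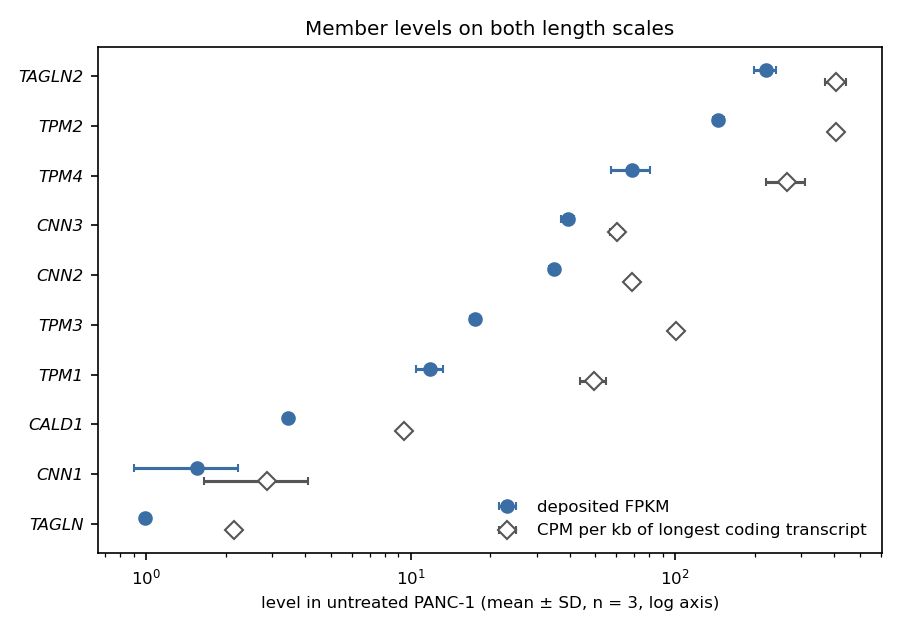
Level of each gene in the 3 untreated PANC-1 samples (mean ± SD, log axis), as deposited FPKM (circles) and as CPM per kilobase of the longest coding transcript (diamonds). TAGLN2, TPM2 and TPM4 lead on both scales, while TPM3 moves from 17.5 FPKM, below CNN2 and CNN3, to 101 CPM per kilobase, above them.

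After MA, no member passed an adjusted p of 0.05 in edgeR's quasi-likelihood test, whereas 7 of 17774 tested genes (0.0394%) did. No member passed in DESeq2 either, where 263 genes (1.48%) did, nor in limma on log2(FPKM + 0.1), where 8 genes (0.045%) did. At an unadjusted p under 0.05 stood 4 of the 10 members: CALD1, TPM4 and TPM1 were lower and TAGLN2 was higher. Of all tested genes 11.2% met this threshold, 5.86% as lower and 5.37% as higher. No member met the study's rule for differentially expressed genes (DEGs), a fold change of at least 2 in either direction with an unadjusted p under 0.05, which 342 genes (1.92%) met. The groups did not overlap for TPM1, TPM2 and CALD1, where every MA PANC-1 sample was lower (11.1% of tested genes), nor for CNN2 and TAGLN2, where every MA PANC-1 sample was higher (8.79% of tested genes). With 3 samples against 3, a two-sided exact permutation test cannot give less than 0.1, and it gave 0.1 for each of these 5 genes. The median log2 fold change was -0.09 over the 10 members, 6 lower and 4 higher, and -0.0017 over all tested genes.

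**Figure D2:**
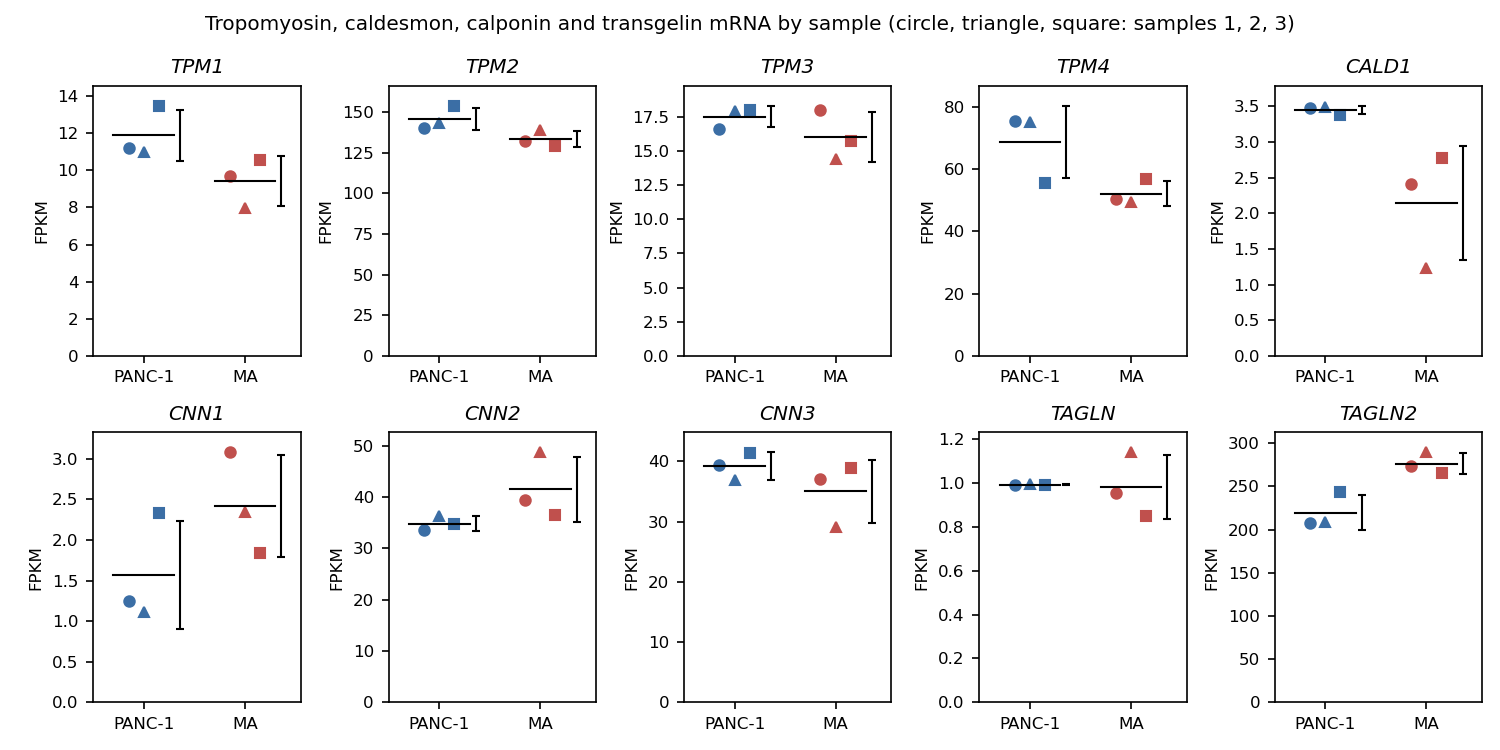
FPKM of each of the 10 genes in every sample (circle, triangle and square for samples 1, 2 and 3), with the group mean (line) and SD (bar). TAGLN2 is above 265 FPKM in all MA PANC-1 samples and below 244 FPKM in all PANC-1 samples, and the MA PANC-1 2 triangle is the lowest point of CALD1 and the highest of CNN2.

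Among the tropomyosins, TPM4 had the log2 fold change of largest size in edgeR with all 6 samples. It lies on the plus strand at chr19:16067021-16103002 (ENSG00000167460) and encodes a short cytoplasmic tropomyosin. Its level was 50.3, 49.3 and 56.8 FPKM in MA PANC-1 1, 2 and 3, and 75.5, 75.2 and 55.3 FPKM in PANC-1 1, 2 and 3. PANC-1 3 fell within the MA PANC-1 range, so the groups overlapped, and the remaining untreated samples were well above. The log2 fold change of TPM4 was -0.36 (standard error 0.14, unadjusted p = 0.0316, adjusted p = 0.432 from edgeR). It was also -0.36 without MA PANC-1 2 (unadjusted p = 0.0636), and -0.33 without MA PANC-1 1 (unadjusted p = 0.0938). Leaving out PANC-1 3 gave -0.50 (unadjusted p = 0.00255), while leaving out PANC-1 1 or PANC-1 2 gave -0.29 each (unadjusted p = 0.111 and 0.105), so the unadjusted call for TPM4 depended on which sample was kept.

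TPM1, the alpha tropomyosin of muscle and many other cells, lies at chr15:63042632-63071915 on the plus strand (ENSG00000140416). It read 9.70, 7.97 and 10.6 FPKM in the MA PANC-1 samples against 11.2, 11.0 and 13.5 FPKM in the PANC-1 samples. All treated samples were lower, with a narrow gap between 10.6 and 11.0 FPKM. The edgeR log2 fold change was -0.30 (standard error 0.12, unadjusted p = 0.0366, adjusted p = 0.435), and -0.23 without MA PANC-1 2 (unadjusted p = 0.0768). It was -0.31 without MA PANC-1 1 (unadjusted p = 0.0774) and -0.21 without PANC-1 3 (unadjusted p = 0.137). Without PANC-1 1 or PANC-1 2 edgeR gave -0.35 and -0.36 (unadjusted p = 0.0491 and 0.0428), larger in size than TPM4 in those fits. In limma on log2(FPKM + 0.1) the unadjusted p of TPM1 was 0.0501.

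TPM2 is the most abundant tropomyosin here and lies on the minus strand at chr9:35681992-35690121 (ENSG00000198467). MA PANC-1 samples had 132, 139 and 129 FPKM, and PANC-1 samples 140, 143 and 154 FPKM. The ranges did not overlap, yet the difference was small, a log2 fold change of -0.09 (standard error 0.09, unadjusted p = 0.354 from edgeR). It was -0.16 without MA PANC-1 2 (unadjusted p = 0.0504), but -0.05 both without MA PANC-1 3 (unadjusted p = 0.640) and without PANC-1 3 (unadjusted p = 0.645). The FPKM ranges of TPM3, a cytoplasmic form at chr1:154155304-154194648 on the minus strand (ENSG00000143549), did overlap, with 18.0, 14.4 and 15.7 FPKM after MA and 16.6, 17.9 and 18.0 FPKM in untreated cells. Its log2 fold change was likewise -0.09 (standard error 0.09, unadjusted p = 0.357), and -0.06 without MA PANC-1 2 (unadjusted p = 0.542). Without MA PANC-1 1 it was -0.17 (unadjusted p = 0.150 from edgeR).

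In FPKM the 4 tropomyosins summed to nearly the same level within each group. Their summed FPKM was 210.6 ± 1.19 (SD, n = 3) in MA PANC-1 and 243.7 ± 3.36 in PANC-1, 13.6% lower after MA. The separate sums were 209.8, 210.2 and 212.0 FPKM after MA against 243.5, 247.1 and 240.4 FPKM in untreated cells. Both ranges were narrow although single genes varied: PANC-1 3 had the lowest TPM4 and the highest TPM2 and TPM1 of the untreated samples. The SD of the untreated sum (3.36 FPKM) was smaller than that of TPM4 alone (11.5 FPKM). The sum was 14.0% lower on CPM scaled by TMM (1516 ± 12.7 against 1762 ± 72.8) and 12.1% lower per kilobase of the longest coding transcript (712 ± 20.9 against 811 ± 23.3), without overlap of the groups on any of the 3 scales. The untreated sums spread more on CPM scaled by TMM, from 1683 to 1826. No test was run on the sum. TPM2 made up 59.8% ± 3.56 of the summed FPKM in PANC-1 and 63.2% ± 2.57 in MA PANC-1, and TPM4 28.1% ± 4.45 and 24.7% ± 1.79, differences within about one SD. Since these are bulk samples, fewer cells of a type and less RNA per cell cannot be told apart.

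**Figure D3:**
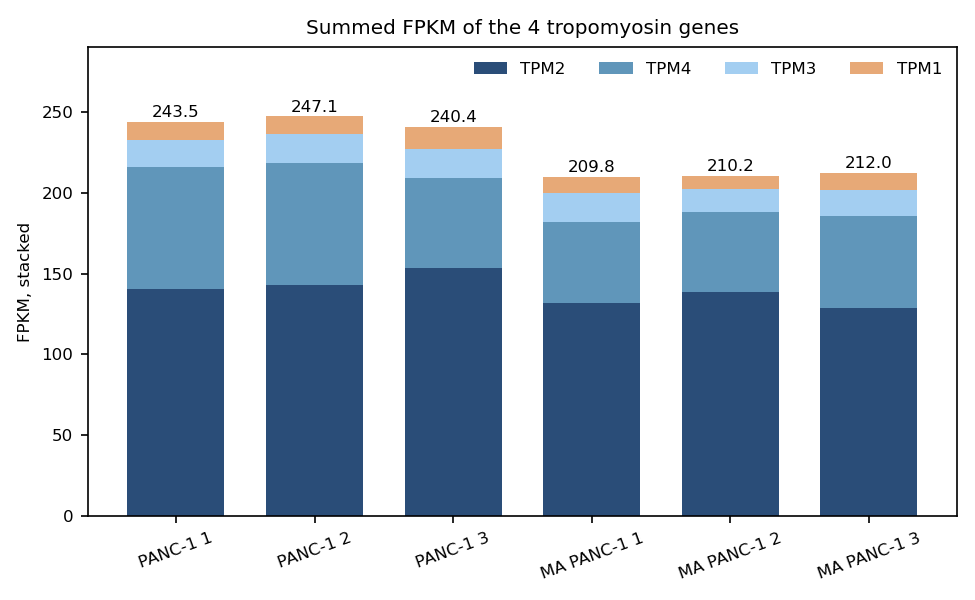
Summed FPKM of TPM2, TPM4, TPM3 and TPM1 in each sample, stacked by gene, with the total above each bar. The untreated totals run from 240.4 to 247.1 FPKM, and those after MA from 209.8 to 212.0 FPKM, with no overlap.

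CALD1 encodes caldesmon, which holds tropomyosin on the filament and blocks myosin binding, and lies on the plus strand at chr7:134744252-134970729 (ENSG00000122786). Its FPKM was 2.42, 1.24 and 2.78 after MA against 3.47, 3.48 and 3.38 in untreated cells. Every treated sample was below every untreated one, and MA PANC-1 2 was much the lowest. The log2 fold change was -0.66 (standard error 0.25, unadjusted p = 0.0321, adjusted p = 0.432 from edgeR). In this fit only CNN1 had a larger size among the members (0.67). The order of these genes changed with the setting, limma on log2(FPKM + 0.1) giving -0.73 for CALD1 and 0.64 for CNN1. In edgeR CALD1 was at -0.41 without MA PANC-1 2 (standard error 0.10, unadjusted p = 0.00578, adjusted p = 0.376). Leaving out this library thus lowered both the size of the difference and its standard error. Without PANC-1 1, 2 or 3 in turn the unadjusted p was 0.0665, 0.0715 and 0.0630, no longer under 0.05, with log2 fold changes of -0.66, -0.65 and -0.68.

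None of the calponins reached an unadjusted p under 0.05 in edgeR with all 6 samples. CNN2, a calponin of non-muscle and blood cells, lies at chr19:1026586-1039068 on the plus strand (ENSG00000064666). CNN2 read 39.5, 48.7 and 36.5 FPKM after MA and 33.5, 36.3 and 34.7 FPKM in untreated cells. The groups just missed overlapping, with 36.5 against 36.3 FPKM at the gap, and MA PANC-1 2 was far above the rest. Its log2 fold change was 0.30 (standard error 0.14, unadjusted p = 0.0765 from edgeR), 0.12 without MA PANC-1 2 (unadjusted p = 0.153) and 0.40 without MA PANC-1 3 (unadjusted p = 0.0239).

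CNN3, the acidic calponin of brain and many other tissues, lies on the minus strand at chr1:94896949-94927223 (ENSG00000117519). Its values were 37.1, 29.1 and 38.9 FPKM after MA and 39.4, 36.9 and 41.4 FPKM without it. The ranges overlapped, and the low sample was again MA PANC-1 2. The log2 fold change was -0.13 (standard error 0.11, unadjusted p = 0.261 from edgeR) and -0.05 without that library. In MA PANC-1 2 CNN2 made up 60.8% of the summed calponin FPKM, against 49.5% and 47.3% in the other treated samples and 46.1% ± 2.43 (SD, n = 3) in PANC-1. The calponin sum itself was 79.0 ± 1.51 FPKM after MA and 75.6 ± 2.38 FPKM in untreated cells.

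CNN1, the basic calponin of differentiated smooth muscle, lies on the plus strand at chr19:11538767-11550322 (ENSG00000130176). It had 3.08, 2.35 and 1.84 FPKM after MA against 1.25, 1.11 and 2.33 FPKM in untreated cells. PANC-1 3 reached the treated range, as it did for TPM4. The log2 fold change was 0.67 (standard error 0.34, unadjusted p = 0.0857, adjusted p = 0.487 from edgeR), with an unadjusted p of 0.0467 in DESeq2. It was 1.06 when PANC-1 3 was left out (unadjusted p = 0.00920), and 0.65 when MA PANC-1 2 was. Leaving out MA PANC-1 1 gave 0.48 (unadjusted p = 0.243) and leaving out PANC-1 2 gave 0.47 (unadjusted p = 0.230), so single libraries of both groups moved the value.

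TAGLN2 gave the smallest unadjusted p of the group. This gene encodes the widely expressed transgelin and lies on the minus strand at chr1:159918107-159925732 (ENSG00000158710). Its level was 274, 289 and 266 FPKM in MA PANC-1 1, 2 and 3, and 207, 209 and 244 FPKM in PANC-1 1, 2 and 3. All treated samples were higher, and PANC-1 3 was the untreated sample closest to them. The log2 fold change of TAGLN2 was 0.37 (standard error 0.11, unadjusted p = 0.00951, adjusted p = 0.388 from edgeR), 1.29-fold, and 0.29 without MA PANC-1 2 (unadjusted p = 0.0170). Its unadjusted p was under 0.05 in all 15 alternatives tried, while its adjusted p was not under 0.05 in any of them.

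TAGLN, the smooth muscle transgelin also called SM22, lies on the plus strand at chr11:117199321-117204776 (ENSG00000149591). It stayed near 1 FPKM, with 0.954, 1.14 and 0.848 FPKM after MA and 0.988, 0.993 and 0.990 FPKM in untreated cells. The treated values lay on both sides of the untreated ones. Its log2 fold change was 0.03 (standard error 0.20, unadjusted p = 0.888 from edgeR) and -0.13 without MA PANC-1 2. TAGLN2 accounted for 99.5% of transgelin FPKM in PANC-1 and 99.6% in MA PANC-1.

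**Figure D4:**
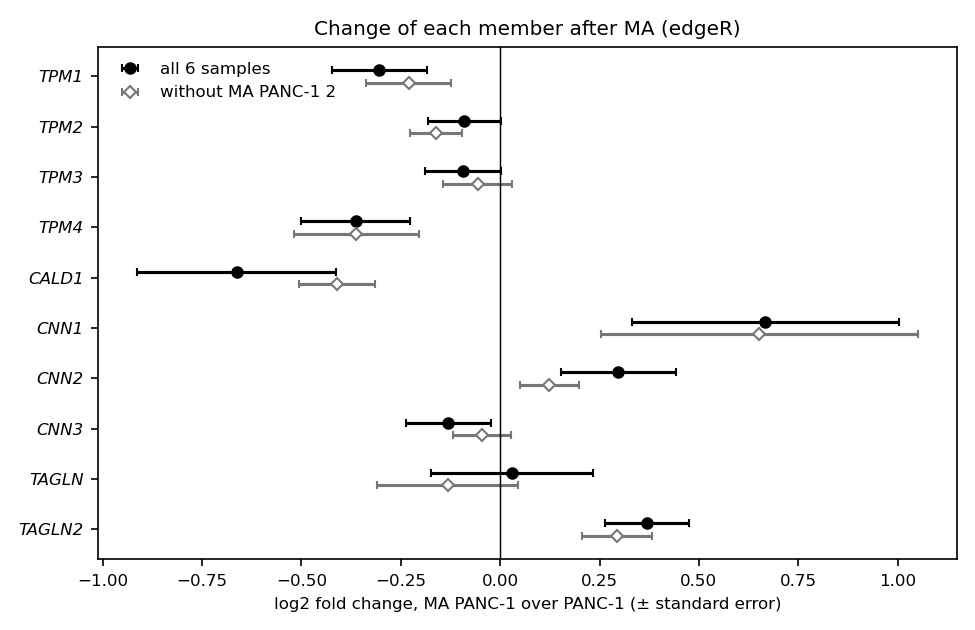
Log2 fold change (MA PANC-1 over PANC-1) of each gene with its standard error from edgeR, for all 6 samples (filled) and without MA PANC-1 2 (open). TAGLN2 is at 0.37 and 0.29, CALD1 moves from -0.66 to -0.41 and CNN2 from 0.30 to 0.12, and TAGLN changes sign from 0.03 to -0.13.

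Some of these genes have processed pseudogenes with which reads can be shared. TPM3P9 had a mean of 1.77 FPKM, 9.54% of its summed FPKM with TPM3 but 1.99% of the summed counts, and TPM3P6 had 0.799 FPKM, 4.55% of its sum with TPM3. TPM3 is therefore uncertain by that amount. The pseudogenes of the other members held under 1% of the FPKM summed with their parent genes, as TAGLN2P1 did with 0.860%. PCSK7, which overlaps TAGLN on the opposite strand, had 2.11 FPKM, 68.2% of its summed FPKM with TAGLN and 92.3% of the summed counts. The libraries were made with dUTP marking of the second strand, but whether the counting used strand is not given in the sources used here, so reads of PCSK7 and TAGLN may not be told apart. No gene overlapping a member on its own strand held 1% of the sum.

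The partners of these proteins on the actin filament were read from lists of the same pathway. In each list 0 genes passed the adjusted threshold in edgeR, DESeq2 or limma, and the counts at an unadjusted p under 0.05 are from edgeR. Each list was also counted without MA PANC-1 2, an alternative chosen after seeing the data, under which 10.3% of all tested genes had an unadjusted p under 0.05. Among the actins 2 of 6 were tested, the cytoplasmic ACTB (701 FPKM after MA, 686 FPKM in untreated cells) and ACTG1 (595 and 557 FPKM), and neither had an unadjusted p under 0.05. The muscle actins ACTA1, ACTA2, ACTC1 and ACTG2 were all below the filter. The list of stress fibre crosslinkers and adaptors had 18 tested genes, a median log2 fold change of -0.02, and 2 lower and 0 higher genes at an unadjusted p under 0.05. Those were PDLIM7, a PDZ and LIM protein that binds tropomyosin TPM2, with 30.8, 33.9 and 32.6 FPKM against 40.1, 41.4 and 39.2 FPKM (log2 fold change -0.27, unadjusted p = 0.0218), and FHL2, a LIM protein of focal adhesions and the nucleus (-0.25, unadjusted p = 0.0236). The groups did not overlap for either gene, and without MA PANC-1 2 the values were -0.35 for PDLIM7 and -0.24 for FHL2 (unadjusted p = 0.00215 and 0.0262). That alternative gave 6 lower and 0 higher genes in this list, with a median of -0.11, since ZYX, TGFB1I1, ACTN1 and SYNPO then joined the genes at an unadjusted p under 0.05. ACTN4 and FLNA, the most abundant crosslinkers, had 284 and 238 FPKM after MA and 294 and 247 FPKM in untreated cells.

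Non-muscle myosin II and its control gave 14 tested genes with a median log2 fold change of -0.04, 1 higher and 1 lower. MYL6, the essential light chain, was higher with 102, 103 and 99.0 FPKM after MA against 59.9, 60.1 and 97.1 FPKM (log2 fold change 0.53, unadjusted p = 0.0285 from edgeR). PANC-1 3 was again close to the treated samples, and without MA PANC-1 2 the value was 0.47 (unadjusted p = 0.0818). PPP1R12A, which targets the phosphatase to myosin light chains, was lower (-0.53, unadjusted p = 0.0325), and its value was -0.35 without MA PANC-1 2 (unadjusted p = 0.0433). RHOA and MYL12B, the most abundant of the list, had log2 fold changes of 0.14 and -0.03. Without MA PANC-1 2 the list had 0 higher and 1 lower gene, PPP1R12A, and a median of -0.14.

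Proteins that cap or sever filaments or bind actin monomers had 15 of 19 genes tested, a median of -0.11, 1 higher and 2 lower. The higher gene was TMOD1, a tropomodulin that caps the pointed end together with tropomyosin, at 0.850, 0.954 and 0.640 FPKM after MA against 0.334, 0.357 and 0.655 FPKM (log2 fold change 0.91, unadjusted p = 0.0308 from edgeR). Its groups overlapped through PANC-1 3, and without MA PANC-1 2 the value was 0.73 (unadjusted p = 0.0998). CAPZA2, a barbed-end capping subunit, was lower (-0.70, unadjusted p = 0.0258 from edgeR), as was the villin-family protein SVIL (-0.21, unadjusted p = 0.0475 from edgeR). Without MA PANC-1 2 edgeR gave -0.57 for CAPZA2 (unadjusted p = 0.0856) and -0.18 for SVIL (unadjusted p = 0.0399). TMSB10, a monomer-binding thymosin, and PFN1, profilin, had log2 fold changes of 0.01 and 0.09 at the highest levels of the list. With that library left out the list had 0 higher and 1 lower gene, SVIL, and a median of -0.08.

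SRF and MRTF transcription had 7 of 8 genes tested, a median of 0.03, 1 higher and 0 lower. MRTFA, the actin-sensing SRF coactivator, was higher in every treated sample, with 9.51, 9.58 and 8.23 FPKM against 7.41, 6.78 and 7.23 FPKM (log2 fold change 0.39, standard error 0.11, unadjusted p = 0.00994, adjusted p = 0.388 from edgeR), and 0.31 without MA PANC-1 2 (unadjusted p = 0.0180). ANKRD1, a nuclear ankyrin-repeat protein of the same response, had 0.31 with all samples (unadjusted p = 0.249) and 0.55 without MA PANC-1 2 (unadjusted p = 0.00741), so that 2 genes were then higher and 0 lower, with a median of 0.11. CCN1 and CCN2, secreted proteins of the same response, had log2 fold changes of 0.03 and -0.09. MYOCD, the muscle-restricted coactivator myocardin, had no counts.

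Troponins, the calcium switch on tropomyosin in striated muscle, had 5 of 8 genes tested, a median of -0.37, 0 higher and 1 lower. That median was the value of TNNC2, at 0.332 FPKM with a standard error of 0.60. TNNC1 and TNNI2 were also near the filter, at 0.239 and 0.128 FPKM. TNNT1, the slow skeletal troponin T, was the most abundant at 81.1 FPKM after MA and 80.8 FPKM without it, a log2 fold change of 0.05. TNNI3, the cardiac troponin I, was lower, with 1.46, 1.40 and 1.40 FPKM against 2.10, 2.06 and 1.78 FPKM (log2 fold change -0.44, unadjusted p = 0.0466 from edgeR). TNNI3 lies 2561 bases from TNNT1 and 888 bases from DNAAF3 (3.07 FPKM), both on the same strand. Whether reads were shared with these genes was not tested. Without MA PANC-1 2 its value was -0.47 (unadjusted p = 0.0521), and 0 troponins then had an unadjusted p under 0.05.

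**Figure D5:**
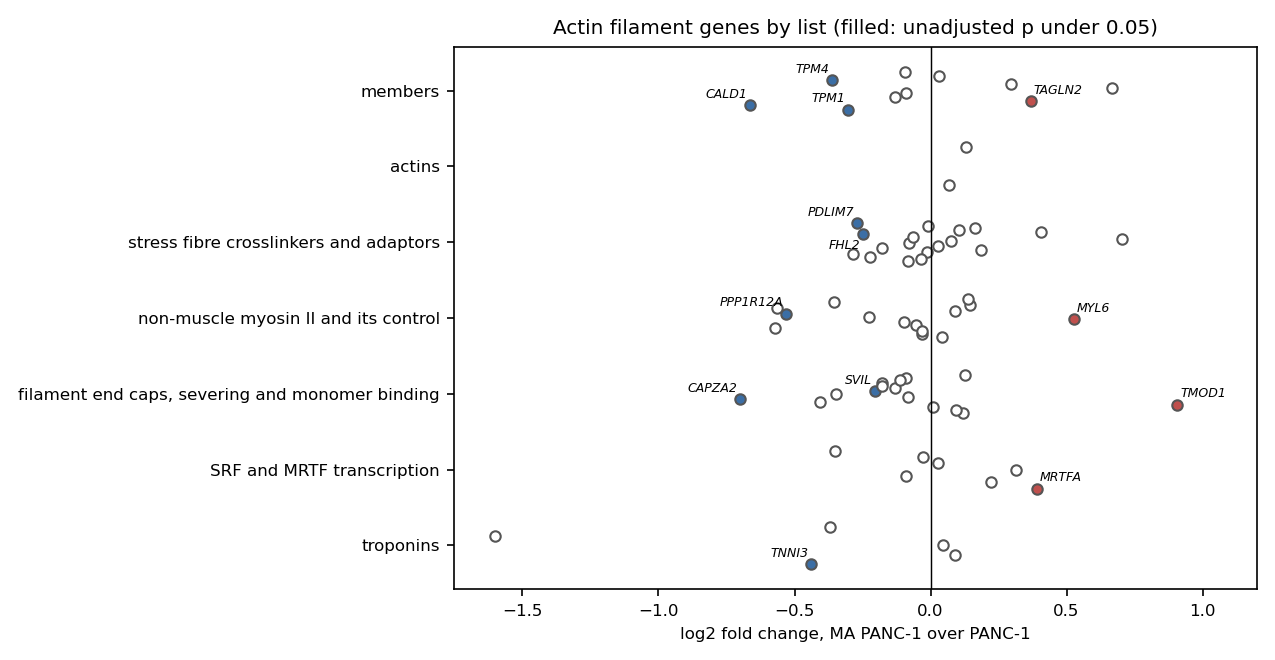
Log2 fold change of each tested gene in the member group and in 6 lists of actin filament genes, with genes of unadjusted p under 0.05 filled and named. Filled points lie on both sides of 0, TMOD1 at 0.91 and CAPZA2 at -0.70 among the end caps, and none passed the adjusted threshold.

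Markers of muscle, stromal and immune cells were examined beside these genes, since several members are smooth muscle markers. Of the 8 smooth muscle markers 3 passed the filter, SMTN at 5.01 FPKM together with CNN1 and TAGLN, while MYH11 had 0.0254 FPKM, ACTA2 0.0937 FPKM and DES 0.00727 FPKM. The summed list read 9.52, 9.58 and 7.07 FPKM after MA and 8.14, 6.89 and 7.91 FPKM in untreated cells, an overlap. CNN1 and TAGLN thus passed the filter of 0.1 FPKM, while MYH11, ACTA2 and DES were below it. SMTN was above both CNN1 and TAGLN. Of the 9 striated muscle markers 2 passed, TNNI3 and MB (1.39 FPKM), and MYH6 and MYH7 had no counts. That sum was 2.74, 2.74 and 2.68 FPKM after MA and 3.52, 4.11 and 3.02 FPKM without it, its most abundant gene being TNNI3.

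Fibroblast markers had 4 of 9 genes tested, and COL3A1 was the most abundant at 14.1 FPKM, followed by COL1A1 at 4.04 FPKM, LUM at 0.513 FPKM and COL1A2 at 0.180 FPKM. COL3A1 was lower in every treated sample (log2 fold change -0.33, unadjusted p = 0.0740 from edgeR). DCN, PDGFRA, PDGFRB, FAP and THY1 were below the filter. The fibroblast sum was 18.9, 17.4 and 13.8 FPKM after MA and 20.3, 17.9 and 25.6 FPKM in the untreated samples. Immune markers had 1 of 4 genes tested, CD68 at 30.6 FPKM, a lysosomal protein also made outside immune cells, with PTPRC at 0.00209 FPKM and CD3E without counts. The immune sum was 26.0, 37.2 and 27.5 FPKM after MA and 25.6, 41.1 and 26.7 FPKM in the untreated samples, and no gene of these 4 lists other than TNNI3 had an unadjusted p under 0.05 in edgeR with all 6 samples, and none without MA PANC-1 2. The part of such cells in the member values was not tested.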

How the data were processed

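The members and gene lists were chosen with earlier results of these data known. One table, deposited by the authors, gives for every gene and sample an FPKM and an estimated count, and lists genes without reads at 0.0001 FPKM. The submitters' processing notes name cutadapt 1.9, HISAT2 2.0.4, StringTie 1.3.4d, edgeR and DESeq2. Gene positions are GRCh38, where 91.5% of 58552 genes share the start of their GENCODE 29 entry. The annotation release is not given in the sources used here. The estimated counts deposited by the authors are not normalized and not reads, so precision was taken from the spread between samples.

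The 17774 genes whose FPKM averaged 0.1 or more were tested by edgeR 4.0.16 (quasi-likelihood, TMM, R 4.3.3) with Benjamini-Hochberg adjustment over all of them. The code was first run on simulated counts with larger changes than the members showed and less spread than these data. That run checked the code only and cannot give the power or error rate here. Alternatives were DESeq2 1.42.0, limma 3.58.1 on log2(FPKM + 0.1) or log2(FPKM + 1), other filters, halved counts, shared reads, a replicate block and each sample left out. Named genes are all members, list genes with unadjusted p under 0.05, the 2 most abundant per pathway list, and pseudogenes or same-strand neighbours with at least 1% of the summed reads or FPKM; other genes were named as markers or after their values were seen. The proteome was not analysed here.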

Additional observations from a re-analysis of the deposited data

How the results depend on the processing

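The median log2 fold change of the members was negative under every alternative, between -0.05 and -0.13, and 9 of the 10 members kept their direction in all 15 alternatives. No member passed the adjusted threshold in any of them, the lowest adjusted p being 0.148 for TAGLN2. TAGLN turned negative with limma on log2(FPKM + 0.1) (-0.023), on log2(FPKM + 1) (-0.010) and without MA PANC-1 replicate 2 (-0.13), and it was not tested with the filter at 1 FPKM. With 3 samples a group and log2 standard errors of 0.09 to 0.34, differences as small as those of TPM2 and TPM3 were not detectable.

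Members at an unadjusted p under 0.05 numbered 4, beside 11.2% of all tested genes. Leaving out 1 sample gave 2 to 5, and the share of all tested genes moved too. It was 2 members without MA PANC-1 1 (7.93% of all), MA PANC-1 2 (10.3%), PANC-1 1 (6.63%) or PANC-1 2 (7.72%), and 5 without MA PANC-1 3 (18.1%). DESeq2 gave 5 members (12.1% of all), CNN1 being the one gained, and limma on log2(FPKM + 0.1) gave 3 (11% of all), TPM1 being lost. Genes past the adjusted threshold numbered 7 with edgeR, 263 with DESeq2, 12 with the filter at 1 FPKM, and 3 to 24 with 1 sample left out (3 without PANC-1 2, 4 without MA PANC-1 1, 24 without MA PANC-1 2). DEGs numbered 342, or 93 with the filter at 1 FPKM, 569 with no filter, 44 with limma on log2(FPKM + 1), and 326 to 534 with 1 sample left out (534 without MA PANC-1 3). Fewer genes were tested with the stricter filter (11470) and more without a filter (28488); for the other settings the cause was not tested.

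The labels number the samples 1 to 3 in both groups. Deviations of same-numbered samples from their group means correlated at 0.06, 0.14 and 0.07 over 11470 genes, and each sample correlated best with its own number, a hint from the data and not from the design. With the replicate block, 0 genes passed the adjusted threshold in edgeR and 2215 an unadjusted p of 0.05, 327 were DEGs and 3 members had an unadjusted p under 0.05, TPM4 being at 0.0550.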
